A study of Homo sapiens with 4 samples.

Results

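The 10 genes described here are 8 genes of the smooth muscle contractile apparatus (ACTA2, TAGLN, MYH11, CNN1, ACTG2, DES, MYL9 and LMOD1) and 2 genes of the interstitial pacemaker cells of the gut (KIT and ANO1). They were chosen by symbol from the 36601 genes of the single-nucleus count tables, and all 10 were found there. The nuclei came from enteric ganglioids, three-dimensional cultures of enteric nervous system cells made from H9, an established human embryonic stem cell line, by way of enteric neural crest. The control group held 2 samples grown without PP121 (the labels do not say whether they received vehicle), and the PP121 group held 2 samples given 2 µM PP121, a small molecule that blocks more than one receptor tyrosine kinase, from day 15 to day 20. Each sample was a pool of ganglioids from 1 differentiation, and both groups carried differentiation replicates 1 and 2. In the deposited annotation, replicate 1 of each group was collected on day 42 and replicate 2 on day 38, so the day and the differentiation cannot be told apart. The study's text describes a single collection day instead. The sample column of the same annotation disagrees with the labels for both controls: it names control replicate 1 as a Stage 1 control replicate 2, and control replicate 2 as a Stage 2 control replicate 1, while it matches the labels for both PP121 samples. The labels were followed here, and every replicate number, same-day pair and replicate block below rests on them. The ganglioids were grown in suspension from enteric neural crest, which limits them as a model of gut muscle.

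In the gut wall, smooth muscle cells shorten when myosin, built on the heavy chain MYH11 and the light chain MYL9, pulls on actin filaments made of ACTG2 and ACTA2. TAGLN and CNN1 bind these filaments, LMOD1 starts their assembly, and DES forms the intermediate filaments that tie the contractile units together. The transcription factor SRF and its partner myocardin (MYOCD) switch on most of these genes through short DNA elements called CArG boxes. Interstitial cells of Cajal pace the muscle: they need the receptor KIT to survive and carry the pacemaker current through the chloride channel ANO1.

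ACTG2 is shown with its promoter because it was the member that best separated mesenchymal nuclei from the other nuclei, and ACTA2 because it did not separate them at all. Both stretches are the 250 bases before a RefSeq start on GRCh38, read in the direction of the gene, with CArG boxes in capitals (CC, then 6 letters that are each A or T, then GG). The first lies at chr2:73892758-73893007 on the plus strand and the other, before the downstream one of the 2 listed starts of ACTA2, at chr10:88952774-88953023 on the minus strand.
ACTG2: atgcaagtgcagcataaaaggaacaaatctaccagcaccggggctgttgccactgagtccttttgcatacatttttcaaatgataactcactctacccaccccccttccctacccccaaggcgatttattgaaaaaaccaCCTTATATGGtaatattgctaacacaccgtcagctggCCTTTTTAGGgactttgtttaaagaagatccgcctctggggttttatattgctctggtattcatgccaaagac
ACTA2: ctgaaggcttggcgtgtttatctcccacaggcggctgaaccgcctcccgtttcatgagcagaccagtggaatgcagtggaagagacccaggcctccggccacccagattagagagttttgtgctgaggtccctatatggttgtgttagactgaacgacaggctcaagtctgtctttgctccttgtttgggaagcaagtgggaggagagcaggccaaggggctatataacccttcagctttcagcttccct

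The 2 boxes of ACTG2 begin 110 and 73 bases upstream of its start. Of the 35116 promoters in the RefSeq table, each 300 bases long with 250 before and 50 after the start, 454 (1.293%) held at least 1 such box on either strand. The table held 6 of the 10 members with 7 starts, and ACTG2 was the 1 member with a match. No match in ACTA2, CNN1, LMOD1, KIT or ANO1 says only that no run of exactly this form is in that window. The printed ACTA2 stretch holds CC and GG around 5 such letters, 1 fewer than the box searched for, and is left in lower case. It also holds ccctatatgg, which includes that run, and ccttgtttgg. Both have the length of the box, but each has 1 inner C or G, which the search did not allow. The search therefore does not say that ACTA2 lacks CArG-like elements.

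After the nuclei marked as filtered were left out, 14812 of 25306 deposited nuclei remained, 2912 to 4587 per sample, with median depths of 6289 to 7071 UMIs (unique molecules counted) per nucleus. The deposited classes were enteric neurons, progenitor 1, progenitor 2, mesenchymal, epithelial and unknown. Mesenchymal nuclei numbered 40 in control replicate 1, 408 in control replicate 2, 33 in PP121 replicate 1 and 422 in PP121 replicate 2, or 0.934, 13.5, 0.719 and 14.5% of the nuclei of each sample. The 2 day 42 samples therefore gave few mesenchymal nuclei, and each value from them rests on few molecules. Pairs of libraries shared 0 to 8 nucleus barcodes. The 13 mesenchymal markers are the genes by which the study named this class, so their level describes the naming and is no independent check. Their sum was 4873 to 5514 UMIs per 1000000 UMIs of the class (CPM) in mesenchymal nuclei and 152 to 230.0 CPM in neurons, and COL1A2, a fibrillar collagen chain, stood at 663 to 981 CPM against 2.97 to 16.8 CPM.

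Across the mesenchymal nuclei the members were sparse. The 8 smooth muscle genes together gave 33.6, 124, 104 and 95.3 CPM in control replicate 1, control replicate 2, PP121 replicate 1 and PP121 replicate 2, in the order used for every set of 4 values below. In neurons the same sums were 48.6, 44.0, 42.6 and 46.9 CPM. The mesenchymal sum was above the neuronal sum in 3 of 4 samples and below it in control replicate 1. In that sample progenitor 1 (54.3 CPM), progenitor 2 (72.2 CPM), unknown (82.7 CPM) and epithelial nuclei (204 CPM, on 41 UMIs) also stood above the mesenchymal sum. For the other samples this sum is set against neurons only, and other classes may stand above it there too. In PP121 replicate 2, unknown nuclei held more ACTA2, MYH11, MYL9 and LMOD1 than mesenchymal nuclei. They held less TAGLN, CNN1 and ACTG2, and neither class held DES. ACTG2, MYH11, TAGLN, MYL9 and LMOD1 were higher in mesenchymal nuclei than in neurons in at least 3 samples, whereas ACTA2 and CNN1 were higher in none. Higher in all 4 samples were 2 of the 9 members with a mean of at least 1 CPM over both classes, MYH11 and ACTG2, against 3740 of 20257 such genes (18.5%). No member had its highest level in mesenchymal nuclei in every sample, although ACTG2 and ANO1 each did in 3.

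**Figure D1:**
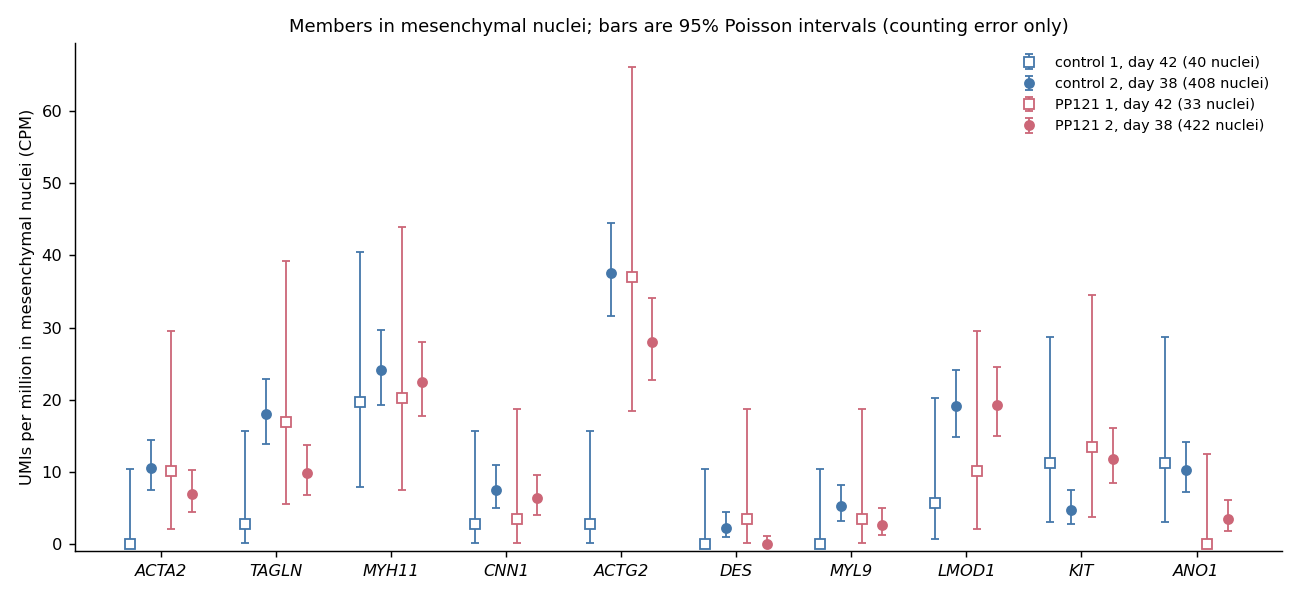
Levels of the 10 members in mesenchymal nuclei, in CPM, for each of the 4 samples, with 95% Poisson intervals that cover counting error only. The intervals of the day 42 samples (40 and 33 nuclei) are wide, and control replicate 1 had 0 UMIs of ACTA2, DES and MYL9.

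ACTG2 encodes the gamma actin of visceral smooth muscle and lies at chr2:73892314-73919865 on the plus strand (GENCODE v29, GRCh38), with no overlapping gene. Mesenchymal nuclei held 1, 136, 11 and 97 ACTG2 UMIs, or 2.80, 37.6, 37.0 and 27.9 CPM. Control replicate 1 alone was low, and its single UMI has a 95% interval of 0.071 to 15.6 CPM. Neurons held 0.528, 0.721, 0.238 and 0.457 CPM of ACTG2. Progenitor 1, progenitor 2 and unknown nuclei held at most 1.80 CPM in any sample. Control replicate 1 also had 1 ACTG2 UMI in 25 epithelial nuclei (4.98 CPM), the only value in another class above its mesenchymal level.

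ACTG2 came from a minority of the mesenchymal nuclei. It was found in 1 of 40, 67 of 408, 5 of 33 and 56 of 422 nuclei, which is 2.50, 16.4, 15.2 and 13.3%. In neurons, which should lack it, the shares were 0.391, 0.560, 0.197 and 0.307%, at median depths of 7210 to 8102 UMIs against 7227 to 8401 in mesenchymal nuclei. With each nucleus thinned to 2000 UMIs the mesenchymal shares were 2.50, 6.42, 6.06 and 4.76%, and the neuronal shares were at most 0.16%. The shares in control replicate 2 and PP121 replicate 2 thus stood above the background, and so did that of PP121 replicate 1 with its wider interval of 0.743 to 20.2%. The most ACTG2 UMIs in 1 nucleus were 16 in control replicate 2 and 9 in PP121 replicate 2.

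ACTA2, the alpha actin of vascular muscle and of myofibroblasts, behaved differently. It lies at chr10:88935074-88991339 on the minus strand. Mesenchymal nuclei held 0, 38, 3 and 24 UMIs, or 0, 10.5, 10.1 and 6.91 CPM, where a count of 0 in control replicate 1 allows up to 8.41 CPM. Neurons held 18.9, 10.6, 16.8 and 7.20 CPM. In each sample the neuronal level was the higher one, by little in the day 38 samples (10.6 against 10.5 CPM and 7.20 against 6.91 CPM), where the counting intervals overlapped. Over the 4 samples ACTA2 averaged 13.4 ± 5.41 CPM in neurons (SD, n = 4), 9.83 ± 3.58 in progenitor 2, 7.93 ± 3.01 in unknown, 7.48 ± 3.67 in progenitor 1 and 6.88 ± 4.86 in mesenchymal nuclei, and neighbours in this order differed by less than these SDs. Epithelial nuclei averaged 13.4 ± 13.6 CPM, level with neurons, on 11 UMIs in all.

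The ACTA2 gene overlaps STAMBPL1, ACTA2-AS1 and FAS on the opposite strand, and whether the counting used strand is not given in the sources used here. STAMBPL1, a deubiquitinase, had 36.6, 22.4, 27.7 and 13.2 CPM in neurons, in the same order over the samples as ACTA2 there. Reads of the genes cannot be told apart if strand was not used, so the neuronal ACTA2 level is uncertain.

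MYH11, the smooth muscle myosin heavy chain (chr16:15703172-15857033, minus strand), gave the steadiest mesenchymal values. Mesenchymal nuclei held 7, 87, 6 and 78 UMIs, or 19.6, 24, 20.2 and 22.5 CPM. Neurons held 6.12, 7.39, 5.58 and 8.22 CPM, below the mesenchymal level in every sample. Unknown nuclei (31.4, 28.8, 25.7 and 33.8 CPM) held more in every sample, and progenitor 2 nuclei (23.3, 23.9, 19.2 and 30.7 CPM) held more in 2 samples and nearly as much in the other two. The means were 30.0 ± 3.47 in unknown, 24.3 ± 4.79 in progenitor 2, 21.6 ± 2.05 in mesenchymal, 12.1 ± 3.59 in progenitor 1 and 6.83 ± 1.20 CPM in neurons (SD, n = 4), and epithelial nuclei averaged more, 41.1 ± 39.7 CPM, on 30 UMIs in all. The ranges of progenitor 2 and mesenchymal nuclei over the samples overlapped. It overlaps NDE1, a gene of neural progenitor division, on the opposite strand, and NDE1 stood at 8.79 to 11.2 CPM in neurons, 22.4 to 34.5 CPM in mesenchymal and 31.3 to 36.7 CPM in progenitor 2 nuclei.

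MYL9, the regulatory light chain of smooth muscle myosin (chr20:36541484-36551447, plus strand), was near the detection limit. Mesenchymal nuclei held 0, 19, 1 and 9 UMIs, or 0, 5.25, 3.36 and 2.59 CPM. Neurons held 0.475, 0.721, 0.535 and 0.8 CPM. The day 38 samples carried 28 of the 29 mesenchymal MYL9 UMIs. The means were 2.89 ± 1.52 CPM in unknown, 2.80 ± 2.18 in mesenchymal and 1.61 ± 0.653 in progenitor 2 nuclei (SD, n = 4). MYL9 overlaps DLGAP4-AS1 on the opposite strand, which stood at 50.5, 48.4, 77.4 and 58.5 CPM in mesenchymal nuclei.

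Among the filament-binding members, TAGLN (transgelin, chr11:117199321-117204782, plus strand) had 1, 65, 5 and 34 mesenchymal UMIs, or 2.80, 18.0, 16.8 and 9.79 CPM. Neurons held 5.91, 5.50, 6.65 and 5.25 CPM, below the mesenchymal value in 3 samples and above it in control replicate 1. Its means were 11.8 ± 7.03 CPM in mesenchymal, 9.89 ± 2.11 in unknown and 6.02 ± 1.41 in progenitor 2 nuclei (SD, n = 4). Epithelial nuclei averaged 14.8 ± 11.7 CPM on 8 UMIs in all. TAGLN overlaps PCSK7 on the opposite strand.

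CNN1, or calponin 1, a brake on actin-activated myosin (chr19:11538717-11550323, plus strand), had 1, 27, 1 and 22 mesenchymal UMIs, or 2.80, 7.46, 3.36 and 6.34 CPM. Neurons held more in every sample, with 7.70, 8.21, 7.49 and 10.6 CPM. No gene overlaps CNN1, and its means ran from 4.99 ± 2.26 CPM in mesenchymal to 11.0 ± 0.894 CPM in progenitor 1 nuclei (SD, n = 4).

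LMOD1, or leiomodin 1 (chr1:201896452-201946588, minus strand), had 2, 69, 3 and 67 mesenchymal UMIs, or 5.61, 19.1, 10.1 and 19.3 CPM. Neurons held 9.02, 10.8, 5.17 and 14.4 CPM. Unknown nuclei held 18.0, 19.8, 9.31 and 34.6 CPM, so that the unknown class was above the mesenchymal one in 3 samples. The ranges of the 3 classes overlapped.

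DES, or desmin (chr2:219418377-219426739, plus strand), was all but missing. Mesenchymal nuclei held 0, 8, 1 and 0 UMIs, or 0, 2.21, 3.36 and 0 CPM. In control replicate 2, 7 of the 8 UMIs lay in 1 nucleus, which also held 75 of the 80 mesenchymal UMIs of MYH3, 34 of 35 of ACTC1 and 2 of 2 of MYOD1. These are embryonic myosin, cardiac actin and a skeletal myogenic factor, genes of striated muscle. DES in that sample thus rested on 1 nucleus with striated muscle transcripts.

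KIT, the receptor for stem cell factor, marks interstitial cells of Cajal, mast cells and melanocytes, and lies at chr4:54657918-54740715 on the plus strand. Mesenchymal nuclei held 4, 17, 4 and 41 UMIs, or 11.2, 4.70, 13.5 and 11.8 CPM. The 4 UMIs of control replicate 1 lay in 2 nuclei and those of PP121 replicate 1 in 1 nucleus. Neurons held 14.6, 14.1, 12.8 and 11.3 CPM, so the mesenchymal level was the higher one only in the 2 PP121 samples. The highest KIT level in each sample was in unknown nuclei, with 29.7, 52.3, 58.6 and 38.4 CPM. Its mean there was 44.7 ± 13.1 CPM, against 13.2 ± 1.47 in neurons, 10.8 ± 2.67 in progenitor 2, 10.3 ± 3.85 in mesenchymal and 6.42 ± 2.48 in progenitor 1 nuclei (SD, n = 4). Below the unknown class, the ranges over the samples overlapped between each pair of neighbours in this order, and epithelial nuclei held 0 KIT UMIs.

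In the unknown class KIT was found in 29 of 176, 12 of 60, 43 of 211 and 19 of 121 nuclei, which is 16.5, 20.0, 20.4 and 15.7%, against 9.04, 9.20, 8.18 and 7.79% of neurons. After thinning to 2000 UMIs the shares were 6.82, 10.2, 8.13 and 4.96% against 2.27, 2.57, 2.22 and 1.33%, higher than neurons in every sample. The defining mast cell genes (TPSAB1, TPSB2, CPA3, HDC and MS4A2) summed to 3.49, 0, 0 and 0.769 CPM there, near 0. The melanocyte list summed to 34.5 to 50 CPM in unknown nuclei, within the range of the progenitor nuclei (25.9 to 57.7 CPM). ETV1, a transcription factor of interstitial cells, stood at 71.0, 128, 68.5 and 54.6 CPM in unknown nuclei, against 14.1 to 63.9 CPM in mesenchymal and 20.7 to 34.6 CPM in progenitor 2 nuclei. The whole list of 9 interstitial cell genes did not stand out there: it summed to 495, 524, 509 and 457 CPM in unknown nuclei, below mesenchymal nuclei (659, 738, 616 and 543 CPM) and progenitor 2 nuclei (885, 937, 805 and 755 CPM) in every sample. ANO1 was also low in unknown nuclei, with 1.75, 1.80, 0 and 0.769 CPM.

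ANO1 (chr11:70078302-70189528, plus strand) had 4, 37, 0 and 12 mesenchymal UMIs, or 11.2, 10.2, 0 and 3.46 CPM. Neurons held 1.27, 0.631, 1.72 and 0.343 CPM. The mesenchymal level was above the neuronal one in 3 samples and at 0 of 33 nuclei in PP121 replicate 1, which allows up to 10.1 CPM. Single nuclei weighed heavily, since 11 of the 37 UMIs of control replicate 2 lay in 1 nucleus. CDH19, a gene of Schwann cell precursors, moved with ANO1 over the samples (50.5, 78.5, 0 and 43.5 CPM in mesenchymal nuclei), and the glial and Schwann list of 7 genes summed to 123, 127, 6.73 and 85.2 CPM against 23.0 to 33.3 CPM in neurons. However, 0 of the 4, 13 and 5 ANO1-bearing nuclei of control replicate 1, control replicate 2 and PP121 replicate 2 held CDH19, and all of them held COL1A2.

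KIT and ANO1 met in few nuclei. Among mesenchymal nuclei both were found in 1 nucleus of control replicate 2 and 1 nucleus of PP121 replicate 2, and in none of the day 42 samples. The 12 and 31 KIT-bearing nuclei of the day 38 samples held ANO1 at 8.33% (exact 95% interval 0.211 to 38.5%) and 3.23% (0.0816 to 16.7%), and the nuclei without KIT at 3.03 and 1.02%, inside those intervals. CDH19 was found in 2 of 2 KIT-bearing nuclei of control replicate 1, against 1 of 38 without KIT. In control replicate 2 it was found in 1 of 12 against 21 of 396. In PP121 replicate 2 it was found in 1 of 31 against 11 of 391, and in PP121 replicate 1 in 0 of 1 against 0 of 32.

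**Figure D2:**
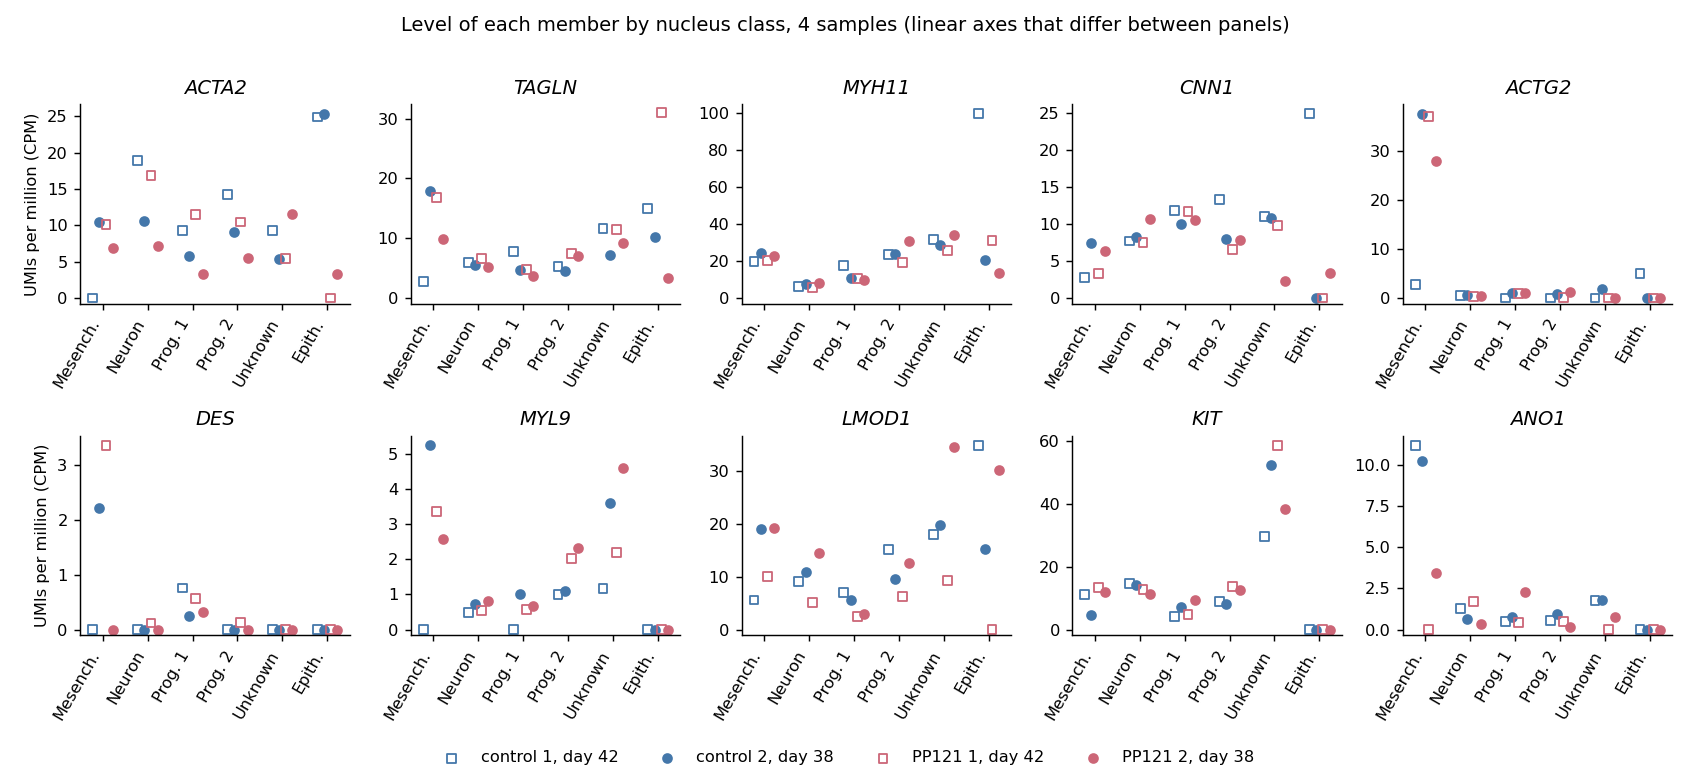
CPM of each of the 10 members in the 6 deposited classes, 1 point per sample. ACTG2 stands out in mesenchymal nuclei in 3 samples, KIT is highest in unknown nuclei in all 4, and ACTA2 and CNN1 are no higher in mesenchymal nuclei than in neurons.

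Whether the smooth muscle members meet in the same nuclei was asked by counting how many of the 8 each nucleus held. As deposited, at least 2 were found in 1 of 40, 62 of 408, 6 of 33 and 39 of 422 mesenchymal nuclei, which is 2.50, 15.2, 18.2 and 9.24%. In neurons the shares were 4.95, 5.92, 3.40 and 6.05%. After each nucleus was thinned to 2000 UMIs, with 0 to 3 shallower mesenchymal nuclei per sample left out, the mesenchymal shares were 2.50, 2.72, 6.06 and 0.714% and the neuronal ones 0.873, 0.642, 0.445 and 1.03%. At that depth PP121 replicate 2 fell below its neurons and the other 3 samples stood above theirs. At least 4 of the 8 were found, as deposited, in 0, 7, 0 and 2 mesenchymal nuclei.

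**Figure D3:**
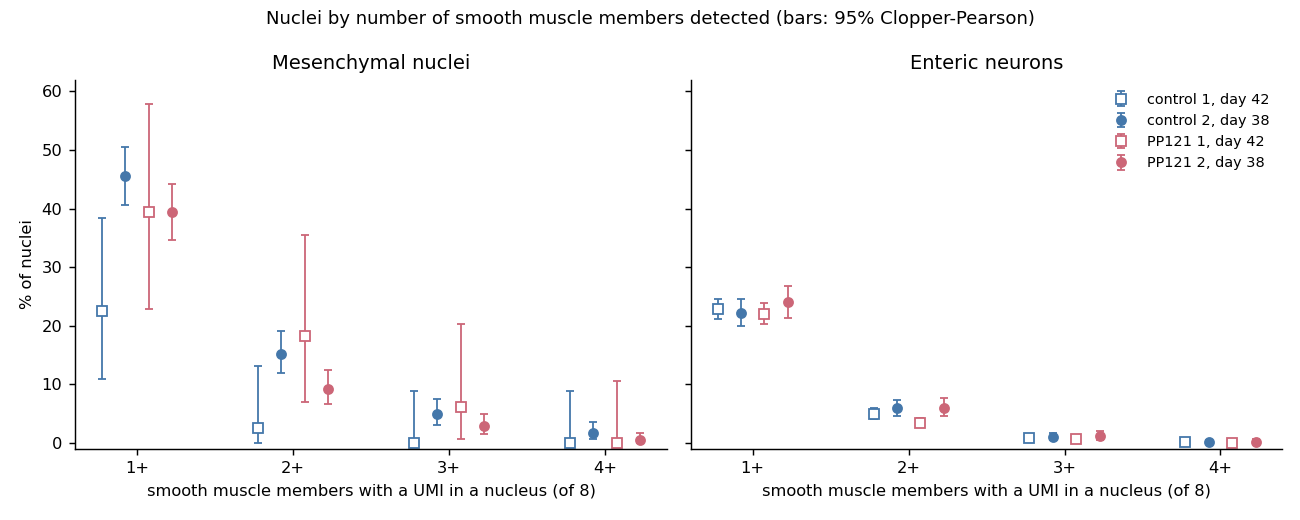
Share of nuclei, in percent, that held at least 1, 2, 3 or 4 of the 8 smooth muscle members, for mesenchymal nuclei and neurons in each sample, as deposited, with exact (Clopper-Pearson) 95% intervals. At 2 or more members the mesenchymal share ran from 2.50 to 18.2% and the neuronal share from 3.40 to 6.05%.

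Nuclei with ACTG2 carried TAGLN and LMOD1 more often than other mesenchymal nuclei of control replicate 2. TAGLN was found in 18 of 67 nuclei with ACTG2 (26.9%, exact 95% interval 16.8 to 39.1%) and in 26 of 341 without it (7.62%, 5.04 to 11.0%). LMOD1 was found in 15 of 67 (22.4%, 13.1 to 34.2%) and 30 of 341 (8.80%, 6.01 to 12.3%). The other members did not follow as clearly. MYH11 was found in 11 of 67 (16.4%) and 47 of 341 (13.8%), and CNN1 in 4 of 67 and 14 of 341. MYL9 was found in 7 of 67 and 10 of 341, and DES in 0 of 67 and 2 of 341. For each of these genes the intervals overlapped. The median depths were 8511 and 7820 UMIs. In PP121 replicate 2 the same shares were 5 of 56 (8.93%, 2.96 to 19.6%) against 20 of 366 (5.46%) for TAGLN and 8 of 56 (14.3%) against 40 of 366 (10.9%) for LMOD1, and the intervals overlapped. ACTA2 was found in 3 of 67 and 2 of 56 nuclei with ACTG2, no more often than in the rest (21 of 341 and 15 of 366). Most nuclei with ACTG2 thus held no ACTA2 UMI at this depth. These intervals treat nuclei of 1 sample as independent and compare no conditions.

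The other genes of the contractile apparatus gave a different picture from the members. The 20 listed genes summed to 3176, 3258, 2833 and 3283 CPM in mesenchymal nuclei and 1139, 1170, 1218 and 1264 CPM in neurons, with 14 genes higher and 2 lower than in neurons in all 4 samples. CALD1, or caldesmon, stood at 1029, 702, 740 and 717 CPM against 172 to 209 CPM. TPM1, a tropomyosin found in most cell types, stood at 381, 372, 343 and 501 CPM against 62 to 80.1 CPM. TPM2 (47.6, 52.5, 70.7 and 43.8 CPM against 0.95 to 2.97 CPM) and the actin-bundling SYNPO2 (19.6, 84.6, 33.6 and 122 CPM against 0.713 to 3.07 CPM) were, like ACTG2, far higher in mesenchymal nuclei than in neurons. MYLK, the kinase that activates smooth muscle myosin, was lower in mesenchymal nuclei than in neurons in every sample (11.2, 31.0, 23.6 and 38 against 44.1, 40.6, 50.9 and 47.3 CPM).

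Of the 12 listed regulators of the programme, 1 was higher in mesenchymal nuclei than in neurons in all 4 samples, 1 was lower and 10 were mixed. In mesenchymal nuclei of control replicate 1 and control replicate 2 they summed to 684 and 704 CPM, with 5 and 4 of them at 0 UMIs. The mesenchymal levels of MEF2C, GATA6, KLF4 and PRDM6 are not given here. MYOCD had 0, 3, 1 and 2 UMIs in mesenchymal nuclei, and neurons had 14, 2, 10 and 4. These raw counts are not levels, since the classes differ in size. Mesenchymal nuclei held 356782, 3618664, 297230 and 3472037 UMIs in all, and neurons 18951821, 11088890, 16833351 and 8755285. Per UMI of the class, MYOCD was higher in mesenchymal nuclei in every sample but control replicate 1, on these few molecules. FOXF1, a factor of gut mesenchyme, had 0, 2, 0 and 1 UMIs. HAND2, BARX1 and NKX2-3, further factors of gut mesenchyme and muscle, had 0 UMIs in the mesenchymal nuclei of all 4 samples. SRF was present at 22.4, 15.8, 23.6 and 19.3 CPM, above neurons (10.9 to 15.4 CPM) in every sample. The ubiquitous coactivators MRTFA (198 to 286 CPM) and MRTFB (101 to 239 CPM) were also present.

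Of the 12 listed genes of excitation and of the response to nitric oxide, 5 were higher in mesenchymal nuclei than in neurons in all 4 samples (GUCY1A1, GUCY1B1, PRKG1, PDE5A and ITPR1), 2 were lower (KCNMA1 and CHRM3) and 5 were mixed (CACNA1C, KCNMB1, CHRM2, PLN and IRAG1). GUCY1A1, a subunit of its receptor guanylate cyclase, stood at 165, 179, 135 and 141 CPM in mesenchymal nuclei against 5.75 to 10.7 CPM in neurons. GUCY1B1, the other subunit, stood at 36.4, 44.8, 47.1 and 34.0 CPM against 12.9 to 24.9 CPM. PRKG1, the kinase activated by the product of that cyclase, stood at 3518, 949, 2621 and 952 CPM against 74.5 to 164 CPM. ITPR1, a calcium release channel, stood at 308, 203, 360 and 124 CPM against 4.91 to 6.95 CPM. Of the interstitial cell genes, KITLG, the ligand of KIT, stood at 58.9, 64.1, 47.1 and 50.4 CPM in mesenchymal nuclei and at 6.54 to 12.9 CPM in neurons. Progenitor 1 nuclei held KITLG at 22.7 to 86.2 CPM, so it too was not particular to mesenchymal nuclei.

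**Figure D4:**
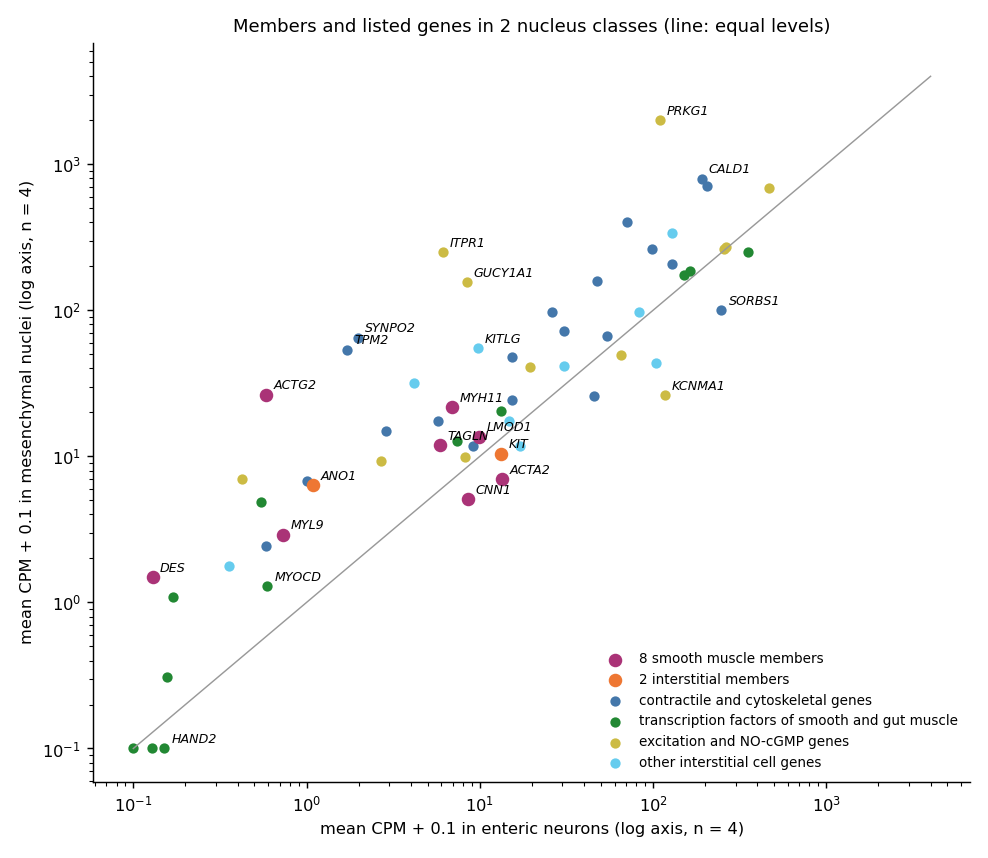
Mean level over the 4 samples in mesenchymal nuclei against neurons (both axes logarithmic, CPM + 0.1), 1 point per gene, for the members and the listed genes. ACTG2, TPM2, SYNPO2, GUCY1A1 and ITPR1 lie far to the mesenchymal side, while ACTA2, CNN1, KIT and MYLK lie on the neuronal side.

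Markers of other cells were checked in the mesenchymal nuclei beside the members. The pericyte list summed to 650, 279, 565 and 215 CPM, but most of this was PDGFRB (533, 196, 468 and 139 CPM), which is also one of the mesenchymal markers. The other 5 pericyte genes summed to 118, 83.5, 97.6 and 76.0 CPM against 17.5 to 25.4 CPM in neurons. The neuron list summed to 104, 153, 158 and 209 CPM. The epithelial list summed to 207, 45.0, 60.6 and 23.0 CPM, highest in control replicate 1, the sample lowest in ACTG2, TAGLN and LMOD1. The mast cell list summed to at most 1.15 CPM and the mesothelial list to at most 1.15 CPM. The part of these cells in the member values was not tested.

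The next question was whether PP121 changed the members. For each class, UMIs were summed per sample and compared with edgeR's quasi-likelihood test, with p-values adjusted over all genes tested (Benjamini-Hochberg, threshold 0.05). In mesenchymal nuclei 0 of 14387 genes passed (0%), with 222 (1.54%) at an unadjusted p under 0.05 and 0 by DESeq2. Of the members 8 were tested and 0 passed, while DES and MYL9 did not reach the count filter. KIT differed by a log2 fold change of 0.95 (SE 0.71) and ANO1 by -1.85 (SE 0.81), both with an adjusted p of 1. The 6 tested smooth muscle members ranged from -0.14 (TAGLN, SE 0.73) to 0.31 (ACTG2, SE 0.72), with a median of -0.01 against 0.01 over all genes. The SEs of the members ran from 0.43 to 0.95 on the log2 scale, so that small changes were not detectable at this depth.

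Because the replicates share a day across the groups, the fit was also made with the replicate number as a block. It called 65 genes (0.452%) in mesenchymal nuclei, 3152 of 21243 (14.8%) in neurons, 349 of 20260 (1.72%) in progenitor nuclei and 213 of 24123 (0.883%) in all annotated nuclei. Without the block 0 genes passed in any of these populations (0%), with 2549 (12%), 962 (4.75%) and 1113 (4.61%) genes at an unadjusted p under 0.05 in neurons, progenitors and all nuclei and 102, 43 and 48 called by DESeq2. With or without the block 0 members passed in any population, of 8 tested in neurons, 7 in progenitors and 9 in all nuclei. The blocked adjusted p of ANO1 in mesenchymal nuclei was 0.79. In neurons the blocked log2 fold changes of the members lay between -0.28 (ACTA2, SE 0.17) and 0.20 (MYL9, SE 0.55).

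**Figure D5:**
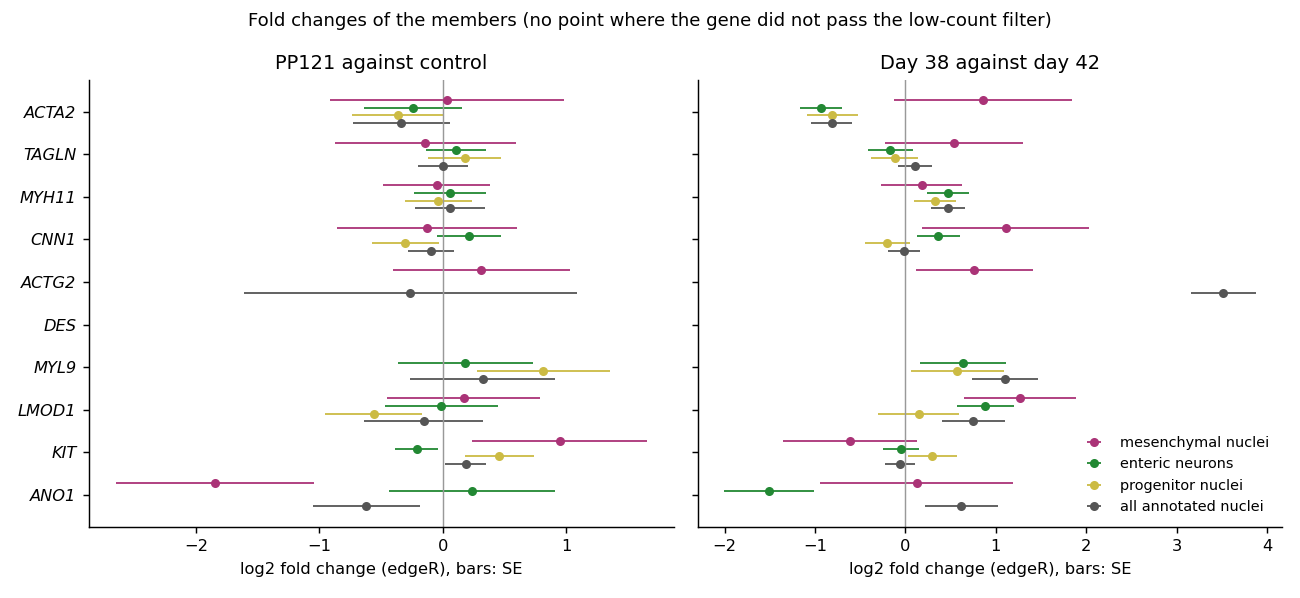
Log2 fold changes of the members with their SEs, for PP121 against control and for day 38 against day 42, in mesenchymal nuclei, neurons, progenitor nuclei and all annotated nuclei. The PP121 values lie around 0 with wide errors in mesenchymal nuclei, and ACTG2 in all annotated nuclei lies at 3.52 for day 38.

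Taken within a day, 1 PP121 sample stood against 1 control sample, with no replicate, and counting intervals are all that can be given. On day 38 the mesenchymal ratio of PP121 to control was 0.545 for TAGLN (95% interval 0.349 to 0.838), 0.743 for ACTG2 (0.567 to 0.972), 0.338 for ANO1 (0.161 to 0.663) and 2.51 for KIT (1.40 to 4.72). MYH11 (0.934, 0.679 to 1.28) and LMOD1 (1.01, 0.712 to 1.44) were level. On day 42 the counts were too small for most members, and ACTG2 stood at 11 UMIs against 1, the opposite direction to day 38. Such ratios compare 2 libraries, not the treatments. A test of the PP121 effect in mesenchymal nuclei against that in neurons called 0 of 20218 genes (0%), with 357 (1.77%) at an unadjusted p under 0.05 and 0 of 9 tested members passing, and DESeq2 was not run on it. The share of mesenchymal nuclei with at least 2 smooth muscle members, after thinning, differed by 0.779 percentage points between PP121 (mean 3.39%) and control (2.61%), and an exact two-sided permutation test gave p = 1, where the smallest p that 2 against 2 allows is 0.33.

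The genes listed beside the members were looked up in the edgeR fits with and without the block, and not in the DESeq2 fit or the other alternatives. Of the fits looked at, they passed for PP121 only in the blocked one, and not in mesenchymal nuclei. In neurons 5 of 19 tested contractile genes passed, 4 higher and 1 lower, against 14.8% of all genes. PRDM6, a repressor known from smooth muscle, was higher by 2.99 (SE 0.26, adjusted p = 7.78e-09), and MEF2C, a muscle and neuronal transcription factor, was lower by a log2 fold change of -0.86 (SE 0.09, adjusted p = 2.72e-07). SYNPO2 was lower (-1.41, SE 0.39, adjusted p = 0.0141). CHRM2 and CHRM3, the muscarinic receptors of gut muscle, were higher by 0.28 and 0.43 (adjusted p = 0.0347 and 0.0111). In progenitor nuclei PRKG1 was higher by 0.78 (SE 0.17, adjusted p = 0.00854) and MEF2C lower (-1.0, SE 0.17, adjusted p = 1.85e-04).

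The last comparison was between the days, which is also that between the differentiations. In mesenchymal nuclei 277 of 14387 genes passed without a covariate (1.93%), and 0 of the 8 tested members did. With treatment as a covariate 632 passed (4.39%), again without a member. LMOD1 (1.27, SE 0.62, adjusted p = 0.444), CNN1 (1.11, SE 0.92), ACTA2 (0.86, SE 0.98) and ACTG2 (0.76, SE 0.64) had positive values, and KIT a negative one (-0.61, SE 0.74). Without PP121 replicate 1, ACTG2 was called at 3.48 (adjusted p = 0.00558), and without control replicate 1 its value was -0.18. The value therefore turned on which day 42 library was left out. Of the listed genes, PALLD (palladin, an actin scaffold; 1.66, SE 0.26, adjusted p = 0.0106), SYNPO2 (1.93, SE 0.40, adjusted p = 0.0345) and CACNA1C (the L-type calcium channel; 1.48, SE 0.30, adjusted p = 0.0326) were higher on day 38, and PRKG1 was lower (-1.74, SE 0.28, adjusted p = 0.0105).

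In all annotated nuclei 174 of 24123 genes passed (0.721%), and ACTG2 was the 1 member among them. It stood at 0.352 and 0.648 CPM in the day 42 samples and at 6.16 and 4.80 CPM in the day 38 samples. The log2 fold change was 3.52 (SE 0.36, adjusted p = 0.0154), and it stayed between 3.14 and 4.03 with each sample left out in turn. Of all ACTG2 UMIs, 136 of 153 and 97 of 112 on day 38 lay in mesenchymal nuclei, and 1 of 12 and 11 of 22 on day 42. The mesenchymal share of nuclei was 13.5 and 14.5% on day 38 and below 1% on day 42, and in a sum over classes more nuclei of a class and more RNA per nucleus cannot be told apart. SYNPO2 (3.39, SE 0.28, adjusted p = 0.00696) and TPM2 (1.96, SE 0.23, adjusted p = 0.023) rose alongside, as did 10 of 13 mesenchymal markers.

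In neurons 0 of 21243 genes passed between the days (0%), with 1574 (7.41%) at an unadjusted p under 0.05 and 59 called by DESeq2. With treatment as a covariate 2015 passed (9.49%), among them 2 of the 8 tested members. ACTA2 was lower on day 38, at 10.6 and 7.20 CPM against 18.9 and 16.8 CPM (log2 fold change -0.95, SE 0.17, adjusted p = 4.81e-04). LMOD1 was higher, at 10.8 and 14.4 CPM against 9.02 and 5.17 CPM (0.89, SE 0.22, adjusted p = 0.00916). For each gene the values of the 2 days did not overlap, but how often this held over all genes was not counted. STAMBPL1, the opposite-strand neighbour of ACTA2, was also lower on day 38, at 22.4 and 13.2 CPM against 36.6 and 27.7 CPM. With the covariate ACTA2 passed in all annotated nuclei too (-0.83, SE 0.17, adjusted p = 0.0243; 1332 genes called, 5.52%). In progenitor nuclei 0 of 20260 genes passed (0%) without the covariate, with 2248 (11.1%) at an unadjusted p under 0.05 and 106 called by DESeq2. With it 606 did (2.99%), and 0 members in either fit. The day effect differed between mesenchymal nuclei and neurons for 322 of 20218 genes (1.59%) and for 0 members.

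Across 20 sums (5 classes without the epithelial one, in 4 samples), the genes with the most similar pattern to ACTG2 were FBLN2 (Pearson r = 0.936), ADAM33 (0.923) and CXCL12 (0.919), of 14480 genes with a mean of at least 5 CPM compared on the log2(CPM + 1) scale. These 3 averaged 27.1 to 29.3 CPM in mesenchymal nuclei and at most 3.29 CPM in the other classes. MYH11 was most like NFIA (0.954), SUCLG2 (0.932) and IQGAP2 (0.930), which were low in neurons and high in progenitor 2, unknown and mesenchymal nuclei. KIT was most like GRM8 (0.899), WNK2 (0.896) and AL451048.1 (0.888), all highest in unknown nuclei. ACTA2 was most like AC004448.2 (0.932), ATP7B (0.906) and AC124312.2 (0.898), all highest in neurons. For TAGLN, CNN1, DES, MYL9, LMOD1 and ANO1 the closest gene reached 0.821 to 0.877. Sums of 1 sample share a library and those of 1 class share their cells, so these values describe patterns and no p is given.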

How the data were processed

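The deposited count tables held UMI counts per gene and nucleus from 10x 3' libraries, with the authors' class and day for each nucleus, and the authors' mitochondrial and ribosomal percent of UMIs per nucleus, which served only to describe depth and quality here. The study's methods name kallisto/bustools and Seurat, and the submitters' processing notes name Cell Ranger, Seurat 4.0.4 and GRCh38. Strand and intron settings are not given in the sources used here. Nuclei that the authors marked as low quality in the deposited annotation were left out (10494 of 25306), and no doublet caller was run here. Counts were summed per class and sample and tested with edgeR 4.0.16 (TMM, filterByExpr, quasi-likelihood, Benjamini-Hochberg at 0.05) in R 4.3.3, without a block. DESeq2 1.42.0, other filters, each sample left out, the nuclei with the most UMIs left out (5%) and a replicate block or treatment covariate were alternatives. Same-numbered samples carry the same day in the deposited annotation, and their deviations from the group means correlated at 0.276 to 0.532 across genes. Nuclei were thinned to 2000 UMIs for shares. Depth was 23348045 to 34123759 UMIs per sample in annotated nuclei. Intervals (95%, Poisson or Clopper-Pearson) and floors (3 counts) cover counting error only, and p-values over 4 samples measure the spread between these differentiations. The steps were tested on simulated data. The members and lists were chosen with earlier results of these data known. Named in the text are all 10 members, listed genes with an adjusted p under 0.05 or among the 4 highest mesenchymal means of a list, and per member the 3 genes with the most similar pattern. Other genes were named after their values were seen.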

Additional observations from a re-analysis of the deposited data

Results flagged for a closer look

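Within a day, the PP121 sample moved one way against its control on day 42 and the other way on day 38 for 3 members, each time past counting error; 1 sample stood on each side, so the difference between the days was not tested. For ACTG2 in mesenchymal nuclei the ratio of PP121 to control was 13.2 on day 42 (95% counting interval 1.92 to 568, from 11 and 1 UMIs) and 0.743 on day 38 (0.567 to 0.972, from 97 and 136 UMIs). For LMOD1 it was 0.573 on day 42 and 1.33 on day 38 in neurons, and 0.467 and 1.30 in all annotated nuclei. For MYH11 in all annotated nuclei it was 0.795 and 1.25. Groups of 2 samples are too small for a check of single samples against their group.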

How the results depend on the processing

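The replicate block raised the genes called for PP121 from 0 to 65 in mesenchymal nuclei, 3152 in neurons, 349 in progenitors and 213 in all nuclei, and called 0 members. In the same order, dropping the low-count filter called 40, 69, 270 and 1, DESeq2 called 102 in neurons, 43 in progenitors and 48 in all nuclei, and leaving out 1 sample gave 0 to 24, 0 to 1402, 0 to 168 and 0 to 8, with 0 members each time. Between the days, the 277 genes of mesenchymal nuclei became 2 without the filter, 632 with treatment as a covariate and 262 to 786 with 1 sample left out (0 to 1 members). The 0 of neurons became 158 without the filter, 59 by DESeq2, 2015 with the covariate (2 members) and 2 to 271. The 0 of progenitors became 40, 106, 606 and 2 to 1031 (0 to 1 members: ACTA2 without control replicate 2). The 174 of all nuclei became 685 by DESeq2, 1332 with the covariate (2 members) and 143 to 1299 (1 to 2 members, with ACTA2 added without control replicate 2). Requiring 10 UMIs in every sum called 88 of 5409 genes for a day effect that differed between classes, in place of 322 of 20218, and left no member to test in mesenchymal nuclei. Leaving out control replicate 2 or PP121 replicate 2 left 1 member to test there, for PP121 and for the day. Those runs could call no other member, so the absence of called members in them says little. The count of members highest in mesenchymal nuclei in every sample was 0, and 1 (ACTG2) with the mean over nuclei or without epithelial nuclei.

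Of 180 recomputed member fold changes, 160 kept direction and side of the threshold, 14 reversed (10 of them with a sample left out), 6 newly passed and 0 were lost. In mesenchymal nuclei, the reversals for PP121 were ACTA2 with the block (-0.026), TAGLN by DESeq2 (0.14) and LMOD1 without the nuclei with the most UMIs (-0.093), and for the day KIT without those nuclei (0.18). With 1 sample left out the PP121 values ran from -0.45 to -0.17 for ACTA2, -0.28 to 3.38 for ACTG2 and -0.22 to 0.35 for LMOD1 in mesenchymal nuclei, and from -0.98 to 0.20 for ACTA2 in neurons. The day values ran from -0.22 to 7.44 for ACTA2, -0.28 to 2.25 for TAGLN, -0.18 to 3.48 for ACTG2 and -0.75 to 7.09 for ANO1. Their sign turned on which of control replicate 1 and PP121 replicate 1 was left out. Leaving out a day 38 sample left 1 member to test in mesenchymal nuclei. Most of these mesenchymal ranges therefore rest only on the runs without a day 42 sample. The share with at least 2 smooth muscle members differed between PP121 and control by 0.779 points, by 4.86 without thinning and by -1.89 to 3.45 with 1 sample left out. Between the days it differed by -2.57, by -0.171 at 1000 UMIs, 2.84 at 4000, 1.88 without thinning and -4.35 to -0.785 with 1 sample left out. The cause of these shifts was not tested. The 33 and 40 mesenchymal nuclei of day 42 limit every member value there.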

Other observations

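Markers of further cell types were measured in the mesenchymal nuclei, outside the comparisons above. The striated muscle list of 16 genes summed to 227, 242, 168 and 234 CPM in control replicate 1, control replicate 2, PP121 replicate 1 and PP121 replicate 2, of which TTN, the giant sarcomere protein, gave 140, 169, 108 and 188 CPM. Neurons held TTN at 212 to 250 CPM, above the mesenchymal level in every sample. The melanocyte list summed to 196, 73.0, 30.3 and 48.7 CPM in mesenchymal nuclei and to 20.1 to 31.5 CPM in neurons. The endothelial list summed to 8.57 to 30.3 CPM.

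KCNMB1, the muscle subunit of the calcium-activated potassium channel, stood at 19.6, 0.553, 6.73 and 0.864 CPM in mesenchymal nuclei. The day 42 values rest on few molecules, since the class held 356782 and 297230 UMIs there, against 3618664 and 3472037 on day 38. KCNMA1, the pore subunit, stood at 5.61, 23.5, 16.8 and 58.8 CPM, below its neuronal level of 91.0 to 142 CPM in every sample.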
